A study of Mus musculus with 2 samples.

Results

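Mouse protein-coding genes with a span above 100 kb were examined for trimethylation of lysine 36 of histone H3 (H3K36me3). They are the coding genes of the GENCODE M21 annotation on chromosomes 1 to 19 whose annotated span passes that length, a rule that uses the annotation alone. There are 2370 of them among 20780 coding genes on those chromosomes, or 11.4%, with a median span of 169 kb. The study mapped H3K36me3 by chromatin immunoprecipitation and sequencing in E14TG2a.4, a male embryonic stem cell line of the 129/Ola mouse strain labelled as embryonic with an age of 3.5 days. Its 1 group holds 2 biological replicates from separate biosamples that trace to the same donor, with no treatment and no other cell line, so nothing here compares conditions. The deposited values are called peaks on the mm10 build, 1 set per replicate, and the number of reads behind each set is not given in the sources used here. All 10 stem cell genes used as a check of the line, among them Pou5f1 and Nanog, were covered over more than 10% of their span in both replicates, and all 8 fibroblast genes, among them Col1a1 and Thy1, had no covered base.

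H3K36me3 is laid down on nucleosomes behind elongating RNA polymerase II by the methyltransferase Setd2, which travels with the polymerase. The mark is therefore known as a sign of transcribed gene bodies, is usually low at the start of a gene and higher towards its 3′ end, and is read by proteins that guide DNA methylation, splicing and repair. Long genes are mostly intron, take a polymerase long to cross, and include many genes of neurons, muscle and cell adhesion beside broadly used ones.

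The measure used throughout is the covered share, the percent of bases of a gene's span that lie in peaks. A gene is called covered where this share was over 10% in both replicates. Values are given for replicate 1 and then replicate 2, or as the mean ± SD of both.

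Sequences just upstream of the annotated starts are shown for a few genes from both ends of the range. The windows are 120 bases of the mm10 reference, written 5′ to 3′ on the strand of the gene with each CpG in capitals. They were taken from the longest of the most covered genes and from the longest genes with no covered base, leaving out windows that touch a coding gene's exon. The most covered are Adam23 (chr1:63445771-63445890, plus strand), a member of the ADAM family of cell surface proteins, and Ctbp2 (chr7:133124355-133124474, minus strand), a transcriptional corepressor.
Adam23: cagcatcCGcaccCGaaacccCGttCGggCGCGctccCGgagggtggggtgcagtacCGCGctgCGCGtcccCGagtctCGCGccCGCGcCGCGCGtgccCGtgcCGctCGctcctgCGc
Ctbp2: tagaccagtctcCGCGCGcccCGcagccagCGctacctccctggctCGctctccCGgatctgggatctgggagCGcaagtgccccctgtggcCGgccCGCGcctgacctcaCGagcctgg
The genes with no covered base are Lsamp (chr16:39984241-39984360, plus strand) and Dlg2 (chr7:90476552-90476671, plus strand), which encode a neuronal adhesion protein and a synaptic scaffold, and Lrp1b (chr2:42653625-42653744, minus strand), a large lipoprotein receptor.
Lsamp: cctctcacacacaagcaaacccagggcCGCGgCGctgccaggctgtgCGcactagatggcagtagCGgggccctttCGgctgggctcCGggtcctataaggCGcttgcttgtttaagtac
Lrp1b: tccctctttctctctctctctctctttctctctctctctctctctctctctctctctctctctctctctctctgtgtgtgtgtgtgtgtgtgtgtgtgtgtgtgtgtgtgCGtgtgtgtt
Dlg2: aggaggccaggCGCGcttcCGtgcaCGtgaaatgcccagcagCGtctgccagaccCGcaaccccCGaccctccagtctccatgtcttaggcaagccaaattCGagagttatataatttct
Adam23 has 23 CpG in its window and Ctbp2 has 12, against 8 in Lsamp, 8 in Dlg2 and 1 in Lrp1b, whose window is a run of short repeats. At least 1 CpG stands in this window in 85.2% of all 20780 coding genes, with a median of 5. The median was 10 in the covered long genes and 6 in the long genes with no covered base, and the quartiles of these groups, 5.75 to 15 and 2 to 11, overlap.

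Long genes passed the threshold of 10% of the span less often than coding genes as a whole. The threshold asks for more bases in a longer gene, and genes under 3 kb passed it in only 17.0%. In all, 452 long genes, or 19.1%, were covered, against 7974 coding genes of any length, which is 38.4%, and 7165 of 16306 genes of 3 to 100 kb, which is 43.9%. When the bases of other coding genes were left out, 31 of the 452 no longer passed. No covered base at all was found in 1084 long genes, or 45.7%, against 48.7% of all coding genes and 45.2% of genes of 3 to 100 kb. The latter range is uneven, and in genes of 30 to 100 kb, the class next in length, the value was 34.6%. Another 834 long genes, or 35.2%, had some covered bases without passing the threshold, against 12.9% of all coding genes and 10.9% of genes of 3 to 100 kb. In those 834 genes the median share was 1.75% and 1.63%. Long genes hold 59.9% of the span of coding genes and 21.8% ± 1.008 (SD, n = 2) of the covered bases in them.

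Among the covered genes, the share itself was also lower. The median was 30.1% in replicate 1 and 25.3% in replicate 2, a mean of 27.7% ± 3.39, against 57.2% ± 2.74 in covered genes of 3 to 100 kb. That gap is many times the difference between replicates. Over 25% of the span was covered in both replicates in 224 long genes. Over 50% was covered in both replicates in 61 long genes, which is 13.5% of the covered ones, against 52.1% of all covered coding genes. Counted in bases the order turns: a covered long gene held a median of 38.98 ± 4.44 kb in peaks and a covered gene of 3 to 100 kb held 9.88 ± 0.406 kb. A share over 10% of a span above 100 kb is already more than 10 kb, which is above the median of the shorter genes. The direction of this difference was therefore fixed by the rule. A rule of more than 10 kb in both replicates, added after the values were seen, passed 586 long genes, or 24.7%, and 134 of these were not over 10%. This count and that over 25% were taken in long genes only, so neither is set against other coding genes.

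The percent covered also went down with length within the group. Of genes of 100 to 200 kb, 394 of 1418 were covered, or 27.8%. The count was 44 of 412 for 200 to 300 kb, or 10.7%, then 10 of 322 for 300 to 500 kb, or 3.11%, and 4 of 218 above 500 kb, or 1.83%. Leaving out genes that overlap another coding gene, the last count was 2. The share with no covered base went the other way, from 38.9% to 48.5%, 61.5% and 61.5% over the same classes. In the pooled peak set, which is 1 set for both replicates, the count for 200 to 300 kb was 80 and that for 300 to 500 kb was 19, so the drop with length holds there with larger counts.

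**Figure D1:**
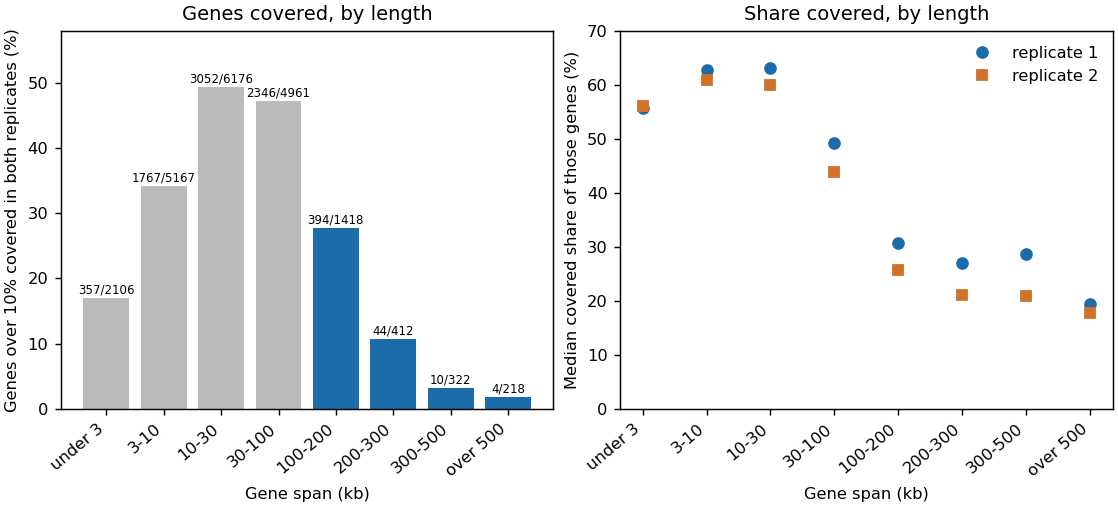
Left, percent of coding genes covered over more than 10% of their span in both replicates, by gene span in kb, with the number covered of the number in each class above the bar and genes over 100 kb in blue. Right, the median covered share of those genes in each replicate. The percent is highest at 49.4% for 10 to 30 kb and lowest at 1.83% above 500 kb.

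Replicate 1 had the larger share in most genes with a covered base, 919 of the long ones against 367 in which replicate 2 had. That is 71.5% of the long genes with a base. Over all coding genes the counts were 7070 and 3543, or 66.4%, so this order is not particular to long genes. Replicate 1 passed 10% in 519 long genes and replicate 2 in 463, with 67 genes over the threshold in replicate 1 alone and 11 in replicate 2 alone. Among the 452 covered genes replicate 1 was higher in 403, or 89.2%, whereas in covered genes of 3 to 100 kb it was higher in 69.0%. The median absolute difference was 3.88 percentage points, against 3.60 in covered genes of 3 to 100 kb. The replicates shared 62.9% of the bases covered in either within long genes. This value and the counts of genes over the threshold in 1 replicate alone are given for long genes only. Peaks inside long genes were also narrower and weaker than those inside genes of 3 to 100 kb, with a median width of 699 ± 12.7 bp against 837 ± 7.78 bp, and a median fold enrichment, the authors' own value per peak, of 4.54 ± 0.497 against 5.05 ± 0.461. The difference in fold is about the size of the spread between replicates, but it had the same direction within each. It was 4.19 against 4.72 in replicate 1 and 4.89 against 5.38 in replicate 2. What part sequencing depth has in the replicate difference was not tested.

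**Figure D2:**
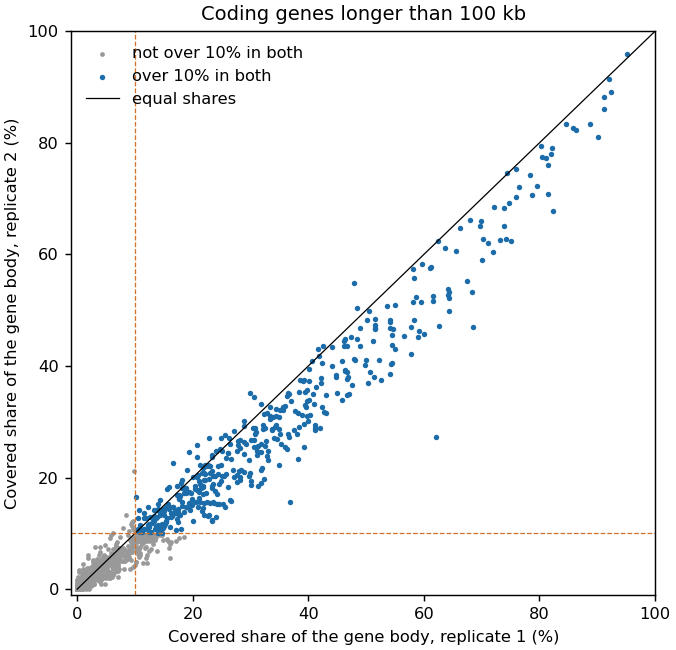
Covered share of each of the 2370 long genes in replicate 1 (horizontal) against replicate 2 (vertical), in percent of the span; blue points are the 452 genes over 10% in both, dashed lines mark 10% and the solid line marks equal shares. Most blue points lie under the line of equal shares, and Ntn1, at 62.0% and 27.3%, stands farthest from it.

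The largest difference between replicates was in Ntn1, which encodes the guidance cue netrin-1, with 62.0% and 27.3%. It was followed by Jarid2, a partner of the Polycomb complex PRC2, with 68.5% and 46.9%, and by Lef1, a transcription factor of the Wnt pathway, with 36.9% and 15.6%. Ap2b1, a clathrin adaptor subunit, had 54.1% and 38.5%, and Mtss1, a protein that bends membranes, had 62.7% and 47.2%. In all of these replicate 1 was the higher. At the threshold, Acacb with 10.1% and 16.5%, Fam49b with 14.7% and 10.04% and Fndc3a with 14.02% and 10.1% were the last ones inside. Myof with 9.80% and 21.1%, Sgms1 with 9.89% and 10.7% and Pcdhga4 with 10.6% and 9.91% were the nearest outside.

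The most covered long genes included ones of ribosome assembly, protein turnover, chromatin and RNA control. Mdn1, which encodes midasin, an ATPase of ribosome assembly, was covered over 95.2% and 95.8% of its 118 kb (chromosome 4, 32657119 to 32775217). Ubr4, a ubiquitin ligase gene of 137 kb, had 92.0% and 91.4%, and Zfp532, a zinc finger gene, had 92.5% and 89.1%. Cabin1, an inhibitor of calcineurin, had 91.2% and 88.3%. Next came Adam23, with 88.7% and 83.4%, and Drosha, which cuts primary microRNAs, with 84.7% and 83.4%. Nsd1, itself a methyltransferase of H3K36, had 85.7% and 82.7%, and Vac14, a scaffold of the PIKfyve lipid kinase, had 86.2% and 82.3%. In each of these 8 genes the share differed by at most 5.24 points between replicates. Ctbp2 had 90.1% and 81.0%, but nearly all of its span lies inside the annotated span of Fgfr2. The short rest of it, at its 5′ end, had no covered base.

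By covered length, 2 annotated spans that read across many genes came at the top and are not typical members. Gm20388, of 4435 kb, overlaps 73 other coding genes and had 819 and 761 kb in peaks, yet only 1.44% and 1.16% of the bases it shares with no other coding gene were covered. Fgfr2, of 2961 kb in this annotation, overlaps 30 and had 348 and 287 kb. Among single genes Dnah8, an axonemal dynein heavy chain, led with 199 and 179 kb, or 78.7% and 70.6% of 253 kb. Gli2, a transcription factor of the hedgehog pathway, held 181 and 149 kb, and Tns3, a tensin of focal adhesions, held 177 and 164 kb. Enox1, a cell surface oxidase, held 174 and 163 kb. Dst and Macf1, giant linkers of the cytoskeleton, held 157 and 149 kb and 156 and 146 kb. Kat6b, a histone acetyltransferase, held 156 and 135 kb, and Abcc4, a drug and nucleotide exporter, held 134 and 130.5 kb. When peaks within 3 kb were joined into domains, 96 long genes held one of over 50 kb in both replicates and 22 held one of over 100 kb. These domain counts are given for long genes only.

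The longest genes were nearly bare. Apart from the 2 read-across spans, the longest of all were Ptprd, with 0.0193% and 0.0197% of 2271 kb, Cntnap2, with 0.180% and 0.149% of 2245 kb, and Lsamp, with no covered base in 2197 kb. All 3 encode cell surface proteins of neurons. The longest covered ones beside Gm20388 were Etl4 (901 kb), which shapes the intervertebral discs, with 11.7% and 10.9%, and Enox1 (565 kb), with 30.8% and 28.9%. Dock1 (503 kb), an activator of the GTPase Rac, had 20.3% and 18.5%, and Utrn (487 kb), the relative of dystrophin, had 26.2% and 27.1%.

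Taken over all covered long genes, coverage along the gene was low over a long 5′ stretch and climbed late. Each covered gene was cut into 10 equal bins, with bin 1 at the 5′ end. Bin 1 was covered to 17.6% ± 3.04, bin 2 to 21.9% ± 3.54 and bin 3 to 22.4% ± 3.12. Bin 5 reached 27.4% ± 3.77, bin 7 reached 36.1% ± 3.63 and bin 10 reached 57.0% ± 2.27. Bin 10 exceeded bin 1 by 38.8 points in replicate 1 and 39.9 in replicate 2. In covered genes of 3 to 100 kb the profile had another shape, with 12.2% ± 1.51 in bin 1, 47.4% ± 2.69 already in bin 3, a top of 72.5% ± 0.927 in bin 9 and 69.2% ± 1.12 in bin 10. The profile of long genes differed with how full the gene was. The 61 over 50% covered rose early, with 36.3% ± 5.70, 53.2% ± 5.15 and 64.2% ± 5.11 in bins 1 to 3. The other 391 had 14.7% ± 2.62, 17.0% ± 3.29 and 15.8% ± 2.81 there. Measured in kb, long genes were covered to 11.7% ± 2.61 over the 5 kb at the start and to 22.8% ± 3.54 at 95 to 100 kb before the end, and reached 58.9% ± 2.30 at 5 to 10 kb before the end.

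**Figure D3:**
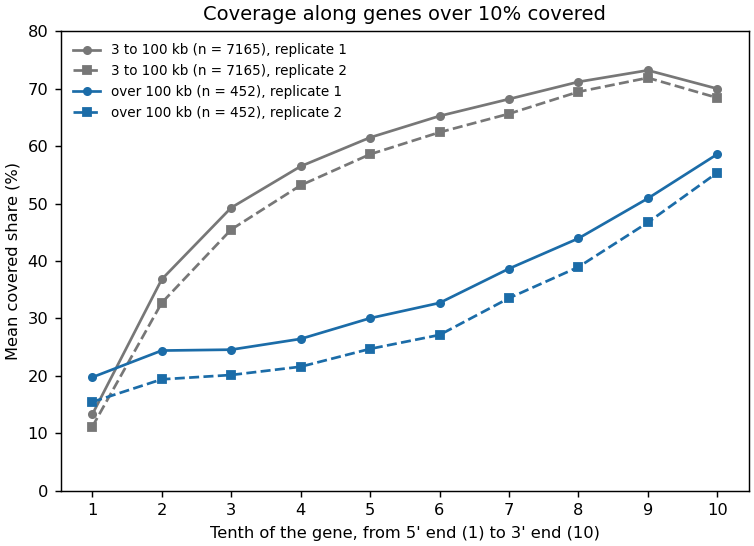
Mean covered share, in percent, of each of 10 equal bins of the gene from the 5′ end to the 3′ end, in 452 covered long genes (blue) and 7165 covered genes of 3 to 100 kb (grey), with replicate 1 as solid and replicate 2 as dashed lines. Long genes stay at or under 30.04% up to bin 5 in both replicates, while the shorter genes are at 45.5% or above from bin 3 on.

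Fewer long genes were covered from end to end. Of the covered long genes, 167, or 36.9%, had more than 10% in each of 3 equal parts of the span in both replicates, against 60.6% of covered genes of 3 to 100 kb. In 96, or 21.2%, the 3′ part alone passed, against 8.74%. In another 36, or 7.96%, both outer parts passed and the middle did not, against 2.71%. The reverse order exists too: the 5′ part exceeded the 3′ part in both replicates in 75 covered long genes, or 16.6%, against 9.83% of those of 3 to 100 kb.

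The strongest cases of 5′ coverage, ranked by the lower replicate of the excess of bins 1 to 3 over bins 8 to 10, were Ino80d, Parn, D10Wsu102e, Srbd1 and Rprd1b. In Parn, a ribonuclease that shortens poly(A) tails, the excess was 61.8 and 61.4 points. Ino80d, a subunit of the INO80 remodeller, had 69.7 and 62.4 points and no coverage in bin 10, and Srbd1, an RNA-binding protein, had 59.5 and 68.4. D10Wsu102e, with 68.0 and 60.8 points, and Rprd1b, a binder of the RNA polymerase II tail, with 63.4 and 57.996, each overlap 1 other coding gene, Aldh1l2 and Tgm2. Without the bases of those neighbours D10Wsu102e had 40.5% and 39.8% covered and Rprd1b 41.2% and 36.4%.

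Coverage was highest in and near exons. In covered long genes 58.4% ± 1.73 of exon bases and 28.6% ± 3.27 of intron bases lay in peaks, a ratio of 1.93 in replicate 1 and 2.18 in replicate 2. In covered genes of 3 to 100 kb the ratio was 1.33 and 1.42. In the 61 genes over 50% covered it was 1.23 as a mean of the replicates, so the ratio depends on how full the gene is. Introns of long genes were covered to 51.7% ± 2.26 within 1 kb of an exon, 32.1% ± 3.76 at 1 to 3 kb, 19.5% ± 4.40 at 3 to 10 kb and 13.2% ± 2.77 beyond 10 kb. Genes of 3 to 100 kb had 60.7% ± 1.66, 42.0% ± 3.77, 25.4% ± 4.65 and 16.4% ± 3.85 at the same distances. They were the higher at each distance in both replicates. The mix of bases differed more: 26.1% of the bases of covered long genes lie in introns more than 10 kb from an exon, against 3.31% in genes of 3 to 100 kb. When the shares of the genes of 3 to 100 kb were weighted by the mix of the long genes, their coverage over all bases went from 50.7% ± 2.499 to 37.3% ± 3.31, and that of the long genes was 30.6% ± 3.16. Both groups were chosen by coverage over 10%, so this is a description of the covered genes only.

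**Figure D4:**
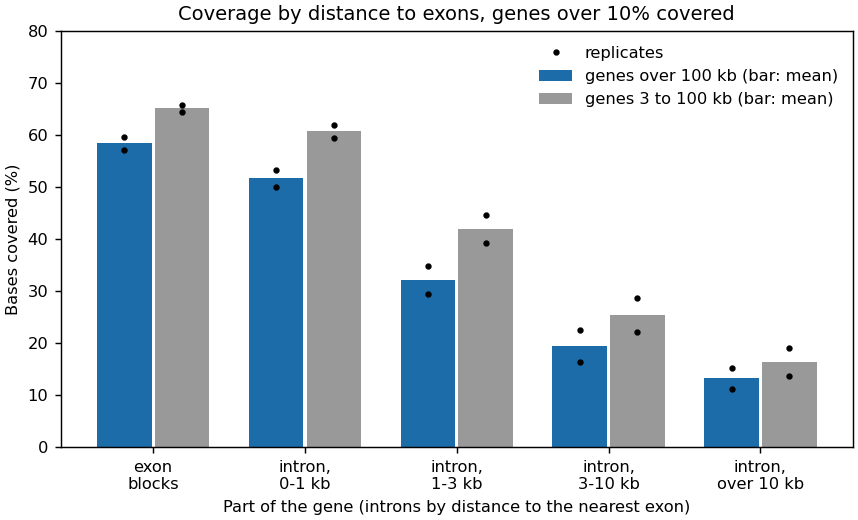
Percent of bases in peaks for exon blocks and for introns by distance to the nearest exon, in covered genes over 100 kb (blue) and of 3 to 100 kb (grey); bars are the mean and dots the 2 replicates. Coverage steps down from 58.4% in exons of long genes to 13.2% beyond 10 kb from an exon.

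The intron next to the start was the barest part. Over the 450 covered long genes with at least 2 introns, it was covered to 10.1% ± 2.35 and the other introns to 39.96% ± 3.56. It was the lower in both replicates in 422 of them, or 93.8%. Since this intron lies at the 5′ end, the same bin was also compared between genes. Where bin 2 lay wholly inside that intron, in 192 genes, it was covered to 11.3% ± 2.55, and where the intron had already ended, in 152 genes, to 36.3% ± 5.09. In bin 3 the values were 7.08% ± 2.00 in 139 genes and 31.7% ± 3.99 in 237, and in bin 5 they were 11.9% ± 1.92 in 56 and 30.2% ± 4.28 in 353. At each of these positions the replicates of the 2 sets did not overlap. A bin wholly inside that intron holds no exon of the transcript used, whereas a bin past it can. Distance to exons was therefore not matched between the sets, and its part in the gap was not tested.

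Covered long genes had more and denser exons. The median was 24 exon blocks in covered genes, 19 in those with some base and 17 in those with none. Of genes with under 10 blocks 7.40% were covered, and the percent was 13.3% for 10 to 19, 26.1% for 20 to 39 and 30.1% for 40 or more, although genes in the last class have the longest median span, 199 kb. Exons made up a median of 6.70% of the span in covered long genes and 3.18% in those with no covered base. The covered ones were also shorter, with a median span of 132 kb against 197 kb, and the part of length was not tested. In genes of 3 to 100 kb the exonic medians were 22.6% and 21.1%. GC content of long genes was 43.8% in covered ones against 41.6% in those with no covered base. The repeat-masked share, 24.9% against 25.6%, was nearly the same. Within 500 bp of the start, an observed over expected CpG ratio above 0.6 was found in 79.6% of covered long genes, 72.2% of those with some base and 49.2% of those with none. For all coding genes it was 47.2%. Among genes of 3 to 100 kb it was 76.4% in covered ones and 18.1% in those with no covered base. Thus among genes with no covered base a CpG-rich start was more frequent in long ones.

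In some genes coverage began far from the annotated start. The onset is the point with 5% of a gene's covered bases upstream of it. Its median was 20.0 kb in replicate 1 and 24.1 kb in replicate 2, against 3.15 and 3.36 kb in covered genes of 3 to 100 kb. As a percent of the span it was 16.0% ± 2.24 against 19.3% ± 1.07, so in relative terms the onset was not later in long genes. In the 61 genes over 50% covered the median was 13.2 kb. In 46 covered long genes, or 10.2%, the onset lay past the middle of the span in both replicates, against 8.01% of those of 3 to 100 kb. Of these 46, 17 overlap another coding gene, against 107 of all 452 covered long genes, and overlapping genes can share the same covered bases. The covered base nearest to the start lay at a median of 6.88 ± 2.69 kb, so isolated peaks often precede the onset.

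The latest onsets were seen in Etl4, Enox1, Tjp1, Ttn and Dst. In Etl4 coverage began 619.5 and 614.3 kb into the gene, 9.47 and 4.24 kb past an internal annotated start of a coding transcript. Enox1 began at 375.1 and 376.3 kb, with the nearest such start 151.2 and 152.4 kb upstream, and the part from there on, where the antisense RNA gene Gm49003 overlaps it, was covered to 87.1% and 82.1%. In Tjp1, which encodes the tight junction protein ZO-1, the onset lay at 186.7 and 186.4 kb, 29.9 and 29.7 kb past an internal start. Ttn, the giant sarcomere protein titin, began at 185.2 and 185.5 kb and was covered to 81.8% and 85.6% from there, where the antisense RNA gene Gm13938 overlaps it. Peaks carry no strand, so in Enox1 and Ttn the gene and its antisense partner cannot be told apart where they overlap. Dst began at 180.9 and 180.8 kb, 77.3 and 77.2 kb past an internal start. Among these 5 genes the replicates differed most in Etl4.

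**Figure D5:**
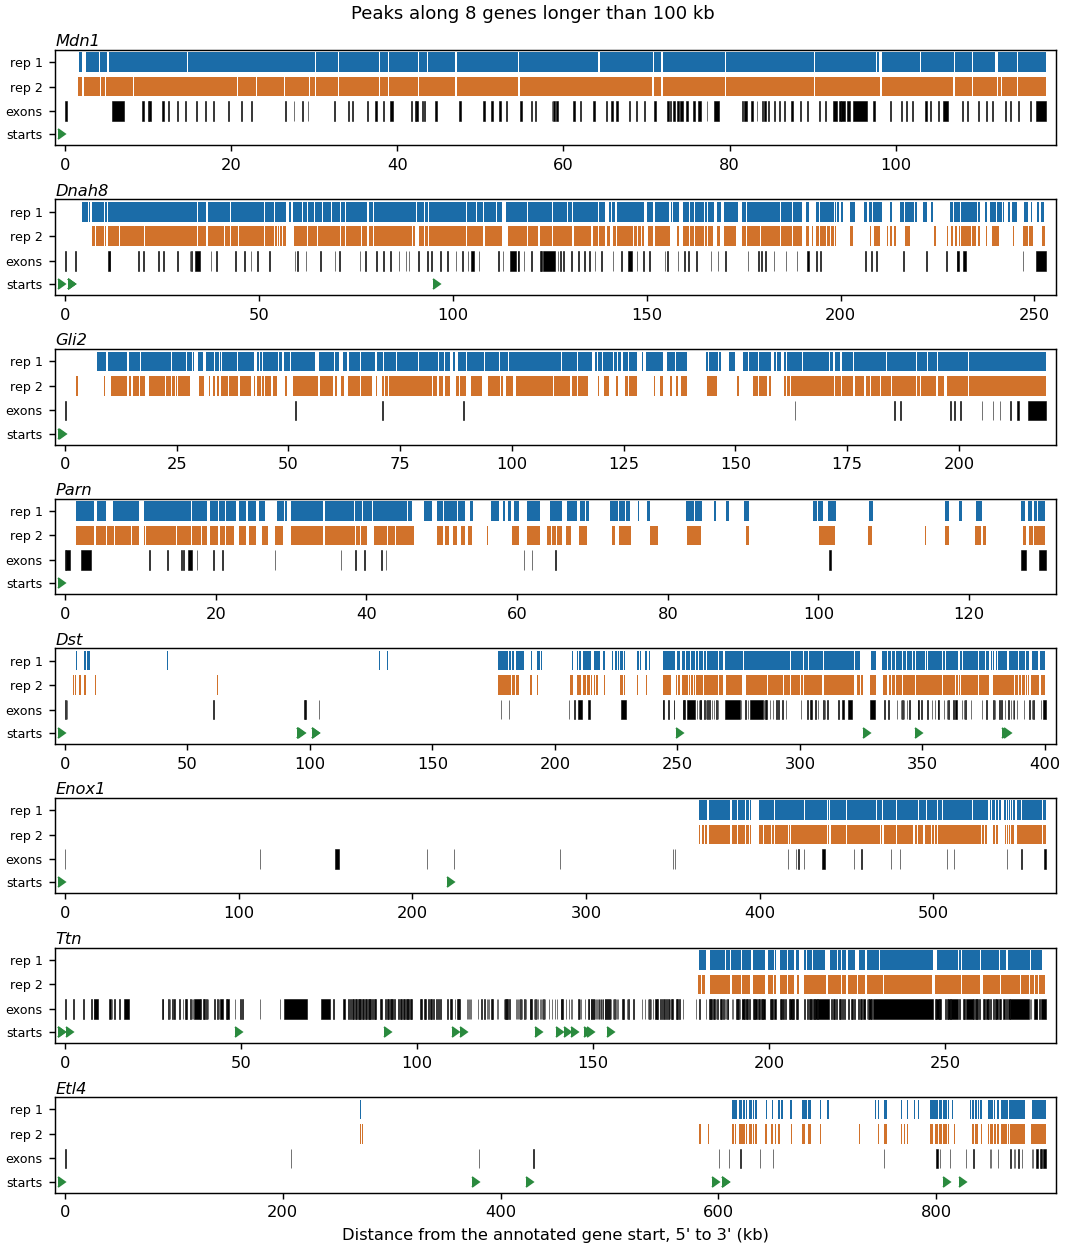
Peaks of replicate 1 (blue) and replicate 2 (orange), exon blocks (black) and annotated starts of coding transcripts (green) along 8 long genes, in kb from the annotated gene start. Mdn1 is filled from near its start, and Parn is filled at its 5′ side. Dst, Enox1 and Ttn are filled at their 3′ side only, after the onsets given in the text. Etl4 is covered more sparsely after its onset, to 35.5% and 32.4%. A few isolated peaks precede the onset in Dst and Etl4.

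An internal coding start within 10 kb upstream of the onset was found, in both replicates, in 10 of the 46 genes with a late onset, or 21.7%, and in 34 of the other covered long genes, or 8.37%. The distance from the onset back to the nearest start of any coding transcript had a median of 44.3 ± 4.21 kb in the late genes, so most late onsets had no such start close by. In the other covered long genes it was 12.7 ± 0.857 kb. The gene start counts here, so this distance cannot exceed the onset. An early onset also leaves less room for an internal start. Both comparisons are thus bounded by how the late genes were chosen. Dnmt3a, the de novo DNA methyltransferase, known in stem cells for a shorter form from an internal promoter, was covered over 12.5% and 12.9% of its span. Its onset lay at 89.9 and 88.9 kb, 0.339 and 0.0669 kb past an internal start. Inpp5d, the lipid phosphatase SHIP1, for which a shorter stem cell form is also known, was covered over 41.9% and 41.7%, with the onset at 59.3 and 59.2 kb, 3.40 and 3.27 kb past an internal start. From the onset on, 97.6% and 96.9% of it was covered. Arid5b, a DNA-binding cofactor, was covered over 20.7% and 20.1%, with the onset at 145.4 kb in both replicates, 3.27 and 3.25 kb past an internal start, and 89.7% and 86.9% from there on. These 3, and Esrrb, were named after their values were seen. Esrrb, a pluripotency factor, began at 87.7 and 90.9 kb of 161 kb 27.0 and 30.1 kb past the nearest start, and had 37.1% and 33.8% covered.

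The windows upstream of the annotated gene start and of the internal start are shown for Arid5b and Inpp5d, the late genes with the shortest way from an internal start to the onset among those whose windows touch no coding exon and that overlap no other coding gene. They are chr10:68278741-68278860 and chr10:68136627-68136746 on the minus strand for Arid5b, and chr1:87620192-87620311 and chr1:87676119-87676238 on the plus strand for Inpp5d.
Arid5b, gene start: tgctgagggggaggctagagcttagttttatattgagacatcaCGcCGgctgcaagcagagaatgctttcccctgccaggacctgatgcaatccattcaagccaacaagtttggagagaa
Arid5b, internal start: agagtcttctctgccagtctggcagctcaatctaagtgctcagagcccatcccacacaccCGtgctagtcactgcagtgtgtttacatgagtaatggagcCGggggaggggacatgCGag
Inpp5d, gene start: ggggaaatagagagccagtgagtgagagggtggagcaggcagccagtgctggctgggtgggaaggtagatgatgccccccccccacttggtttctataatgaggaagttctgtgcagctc
Inpp5d, internal start: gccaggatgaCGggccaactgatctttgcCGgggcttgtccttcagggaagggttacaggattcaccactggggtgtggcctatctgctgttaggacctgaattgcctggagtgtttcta
Arid5b has 2 CpG at its gene start and 3 at the internal one, and Inpp5d has 0 and 2. All 4 counts are under the median of 10 in covered long genes.

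By role, lists of chromatin and of cell division genes held the highest percent of covered members. Of 16 lists, chosen with earlier results of these data known and holding 919 of the long genes, chromatin regulators led with 32 of 47 covered, or 68.1%, and a median share over all 47 of 32.2% and 29.4%. The median over all long genes was 0.0910% and 0.148%. Beside Nsd1 the list was led by Tet1, which oxidises methylated cytosine, with 80.3% and 79.5%, and Chd2, a remodeller, with 82.2% and 79.1%. Hdac9, a deacetylase of muscle and brain, had no covered base. Of genes of chromosome segregation and cell division, 17 of 30 were covered, with Ppp2r5c, a phosphatase subunit, highest at 67.4% and 55.3%. Ubiquitin ligases and deubiquitinases had 21 of 52, with Trip12 at 81.5% and 75.9% beside Ubr4. For DNA replication and repair the count was 5 of 13, with Mms22l, which aids stalled forks, at 46.4% and 39.2% and Wrn, a helicase, at 0. RNA binding and decay had 17 of 46.

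Lists on cell shape and traffic lay in the middle. Cytoskeletal linkers had 20 of 63 covered and included Tns3, Macf1 and Dst. Membrane traffic and autophagy had 16 of 65, with Vps13d, a lipid transfer protein, at 51.5% and 47.3%. Kinases and phosphodiesterases had 20 of 112, or 17.9%, close to the 19.1% of all long genes. Mtor, the growth kinase, was the highest of them at 82.1% and 78.1%. Transcription factors had 18 of 120, or 15.0%. Nr5a2, a nuclear receptor active in stem cells, had 70.01% and 58.9%, while Bach2, a factor of B cells, had no covered base.

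Genes of matrix, muscle and nerve were mostly bare. Extracellular matrix and its receptors had 7 of 76 covered and 56 with no base. The covered ones included components of basement membrane, namely Hspg2, which encodes perlecan, with 75.9% and 75.2%, Col18a1 with 71.0% and 62.1% and Lama1 with 50.6% and 49.9%. Muscle structure had 2 of 26, Ttn and Myo18a, the latter with 31.7% and 33.1% and an unconventional myosin also found outside muscle. Axonemal dynein heavy chains had 1 of 15, Dnah8, and the next, Dnah17, had 9.54% and 8.17%. Synaptic adhesion and axon guidance had 4 of 95, led by Epha4, an ephrin receptor, with 41.1% and 29.4%, and ion channels and neurotransmitter receptors had 2 of 88. Those were Itpr1, the calcium release channel, with 22.2% and 17.2%, and Ano6, a lipid scramblase, with 22.7% and 13.1%. Giant genes of common fragile sites had 0 of 42. Foxp1 came nearest with 12.2% and 9.15%, and on the bases it shares with no other coding gene it had 22.0% and 16.5%, which makes the count 1 of 42 on such bases. Among the rest of the list Csmd1 and Celf2 had no covered base. Lists differ in length as well as in role, with a median span of 163 kb for chromatin regulators, 477 kb for synaptic genes and 1087 kb for fragile site genes, and the part of length in these counts was not tested.

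The highest single peaks of long genes did not all stand in well covered ones. Ranked by the lower replicate of the authors' fold, Zfp532 was highest with 21.2 and 37.4, followed by Dlc1 with 15.5 and 17.8 and Usp7, a deubiquitinase, with 15.5 and 16.3. The read-across span Gm20388, covered over 18.5% and 17.2%, was also among the 5 highest, with 15.1 and 20.6. Dlc1, a GTPase activator, was not covered, with 7.51% and 6.78% of its 385 kb in peaks, and these lay mostly in bin 10, which was covered to 69.97% as a mean of the replicates. A share over the whole span thus counts Dlc1 with the genes that hold few peaks, although bin 10 was fuller than the mean of 57.0% in covered long genes.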

How the data were processed

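Peaks of H3K36me3 were called and deposited by the authors on mm10, 1 pseudoreplicated set per replicate (peaks upheld when a library's reads are randomly divided). The aligner is not given in the sources used here, nor is the peak caller or the depth. Control libraries were not analysed. Each deposited peak has a fold enrichment, a ratio that is the authors' own value, and a q-value as −log10, used only for a stricter setting. Positions and spans came from GENCODE M21, and no peak on chromosomes 1 to 19 ends past the chromosome lengths of the mm10 reference sequence. Where a symbol had several coding records, only the longest entered, leaving out 27 others. The span is the annotated gene, exon blocks merge all transcripts, and overlapping peaks were merged before bases were counted with Python 3.11.15 and numpy 2.4.6. A narrow peak caller splits a broad mark, so covered bases were used rather than peak numbers.

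With 1 group of 2 replicates no test was made, and values are means ± SD. That replicates came from separate cultures is not stated beyond separate biosamples. The length rule uses the annotation alone, but it, the lists and the thresholds were chosen with earlier results of these data known. Named genes were the 10 with the highest share, the 10 with most covered kb, the 5 longest and 5 longest covered, the 5 with the largest replicate difference, the 5 latest onsets, the 5 with most 5′ excess, the 5 highest folds, 3 on either side of the threshold, and per list up to 3 highest and 2 lowest, by the lower replicate. Others are marked as chosen after their values were seen, or illustrate a list. Some genes and 1 list that the rule selects are not reported here. The counting was tested on simulated data.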

Additional observations from a re-analysis of the deposited data

How the results depend on the processing

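No paired analysis was possible because the study has 1 group. Of 116 alternative values, 76 stayed within the spread between replicates, or within 1.5 times for a count, 40 moved and 0 reversed. Only the end minus start difference and the exon to intron ratio could be labelled as reversed by the rule used. Why values moved was not tested beyond what each setting changes by construction. Leaving out 1 replicate gave 463 to 519 covered genes, a median share of 24.8 to 25.7%, an end minus start difference of 35.99 to 39.8 points, an exon to intron ratio of 2.09 to 2.20 and an onset of 20.2 to 24.7 kb. Thresholds of 5, 25 and 50% gave 617, 224 and 61 genes, medians of 20.1, 42.8 and 69.2%, differences of 33.8, 45.1 and 48.9 points, ratios of 2.37, 1.59 and 1.23 and onsets of 25.3, 17.3 and 13.2 kb. Length minimums of 50 and 200 kb gave 1529 and 58 genes, medians of 34.8 and 23.5%, differences of 40.4 and 32.8 points, ratios of 1.79 and 2.47 and onsets of 12.4 and 31.5 kb.

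The unthresholded sets of the other run gave 570 covered genes, a difference of 35.9 points and an onset of 18.4 kb, and 73 genes of 200 to 300 kb. Peaks deposited as found in both replicates gave 611 genes and 37.4 points, the pooled set 612 and 37.1 points, and each 80 genes of 200 to 300 kb and 19 of 300 to 500 kb. Above 500 kb the pooled set gave 7 genes, and genes overlapping no other coding gene gave 2, with 40.4 points over all lengths. On bases in no other coding gene, a setting added after the data were seen, the fragile site list went from 0 to 1 covered gene and the other lists stayed within 1.5 times. Comparing the last 5 kb with the first 5 kb in place of the 10 bins gave 44.2 points, and the covered base nearest to the start lay at 6.88 kb. Requiring −log10 q of at least 5 gave 417 genes and moved no result past the limits above. Under each of these 4 peak sets, the percent of all coding genes covered was between 1.66 and 2.10 times that of long genes.

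The depth behind either peak set is unknown, so a gene without a called peak was not detected here rather than shown to lack the mark.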
